A study of Mus musculus with 11 samples.

Results

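The genes described here are markers of cell types other than T cells that live in the mouse colon, measured in sorted T cells. They were chosen as all probes whose platform gene symbol is one of 40 listed marker genes, of which 37 genes had at least 1 probe, 63 probes in all out of 45281 on the array. By cell type the listed genes comprised 15 myeloid markers, 4 genes of major histocompatibility complex (MHC) class II antigen presentation, 14 epithelial markers, 2 B cell markers, 4 stromal or endothelial markers and 1 erythroid marker. Cd68, Phgr1 and Cd79a had no probe under their symbol and were not analysed here.

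The samples were TCRβ+CD4+ T cells taken by sorting from colon lamina propria. There were 6 WT and 5 Il23r-/- samples, all on the C57BL/6 background. Both kinds of cell had been transferred together, as naive CD4 T cells, into Rag1-/- mice, which then developed colitis, and the donor cells were told apart in the sort by congenic markers. The Rag1-/- host makes no mature T or B cells of its own but keeps its myeloid, epithelial, stromal and red blood cells. Whether each sample had its own recipient mouse is not given in the labels, so p-values here reflect sample-to-sample spread that may be technical.

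The lamina propria lies directly beneath the gut epithelium. Its macrophages and dendritic cells take up antigen and load peptides onto MHC class II molecules, which CD4 T cells recognise, so that T cells and antigen-presenting cells touch. The epithelium above it is sealed by E-cadherin junctions and keratin filaments, and it secretes mucins from goblet cells and, in inflammation, the antimicrobial lectins Reg3b and Reg3g. In a bulk sample, fewer cells of a type and less RNA per cell cannot be told apart.

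The labelled cell type was borne out by T cell genes. All 19 probes of 11 T cell identity genes passed the detection filter, and 17 of them were above background on all 11 arrays, among them those of Cd3d, Cd3e and Cd3g, chains of the T cell receptor complex, and the brighter probe of Cd4. Above background means a detection p under 0.05, read from the deposited detection score. Cd8a, the defining chain of CD8 T cells, was above background on 0 arrays with both of its probes, whereas 2 of the 3 probes of Cd8b1, the second chain, were above background on all 11. Median raw intensity ran from 107.6 to 176.7 between arrays, and 17309 to 18440 probes were above background. Values below are normalized log2 intensities unless stated otherwise, and levels of different probes are not comparable.

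On each array between 25 and 39 of the 63 marker probes were above background. The count was lowest on WT sample 4 (25) and highest on WT sample 1 (39), and the knockout samples held 32 to 37. Over all arrays 24 probes were above background on every array, 20 on none, and 37 probes of 26 genes passed the filter for testing, which asked for at least 5 of the 11 arrays. The 26 probes that did not pass could not enter the comparison of genotypes.

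**Figure D1:**
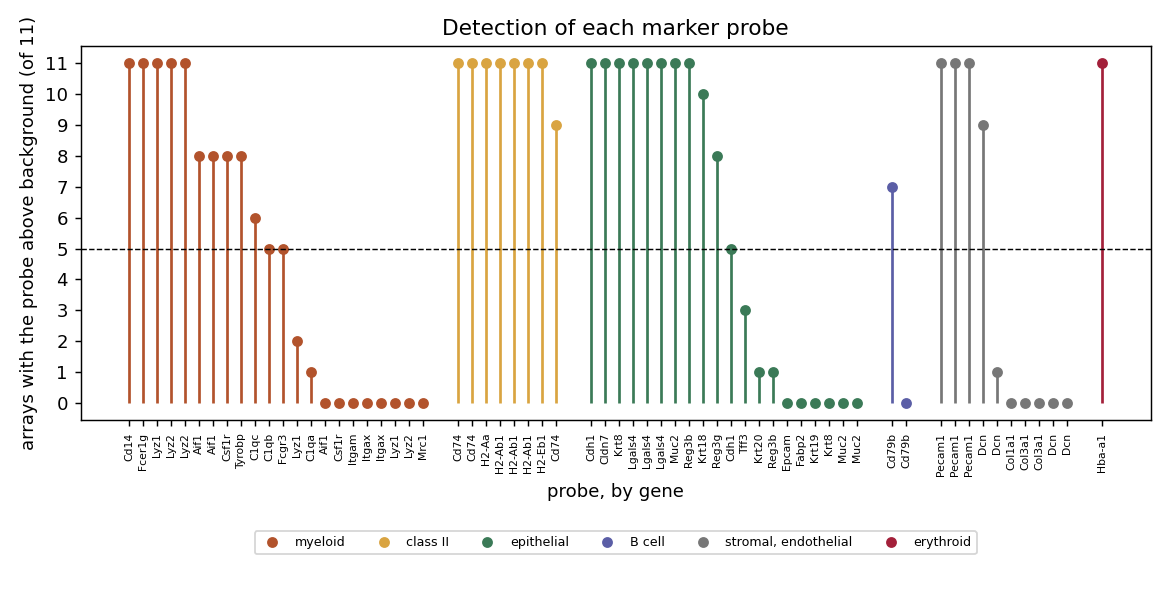
The plot gives, for each of the 63 marker probes, the number of arrays (of 11) on which it was above background, by cell type, and the dashed line marks the 5 arrays needed for testing. Class II probes were above background on at least 9 arrays, whereas the other types with several probes held probes at 0.

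Defining markers of several cell types were at background. Epcam, the pan-epithelial surface protein, Krt19, a keratin of simple epithelium, and Fabp2, a fatty acid carrier of enterocytes, were above background on 0 arrays. So were Col1a1 and Col3a1, the fibrillar collagens of fibroblasts. Among myeloid markers the integrin genes Itgam and Itgax and the mannose receptor gene Mrc1 were above background on 0 arrays, and C1qa, a chain of complement C1q, on 1. Krt20, a keratin of mature colonocytes, was above background on 1 array, and Tff3, the trefoil peptide of goblet cells, on 3.

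All 4 class II genes were detected widely. H2-Aa and H2-Ab1 encode the α and β chains of the I-A molecule, H2-Eb1 a chain of I-E, and Cd74 the invariant chain that guards the peptide groove. Of their 8 probes 7 were above background on all 11 arrays and the dimmest, of Cd74, on 9. Class II genes are known to share promoter elements bound by the factors that recruit the coactivator Ciita, among them the Y box. The promoters of 2 of these 4 genes in the RefSeq table (GRCm38.p6) are shown, 5′ to 3′ on the strand of the gene. They run from 250 bases before to 50 bases after the gene start. Capitals mark each match to the Y box core ATTGG or its reverse complement CCAAT.
H2-Aa (chr17:34287774-34288073, minus strand): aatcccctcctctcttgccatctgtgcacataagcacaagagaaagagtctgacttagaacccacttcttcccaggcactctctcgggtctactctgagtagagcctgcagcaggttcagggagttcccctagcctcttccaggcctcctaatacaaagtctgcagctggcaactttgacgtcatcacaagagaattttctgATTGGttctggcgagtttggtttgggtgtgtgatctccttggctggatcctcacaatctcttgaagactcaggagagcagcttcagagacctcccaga
H2-Eb1 (chr17:34305617-34305916, plus strand): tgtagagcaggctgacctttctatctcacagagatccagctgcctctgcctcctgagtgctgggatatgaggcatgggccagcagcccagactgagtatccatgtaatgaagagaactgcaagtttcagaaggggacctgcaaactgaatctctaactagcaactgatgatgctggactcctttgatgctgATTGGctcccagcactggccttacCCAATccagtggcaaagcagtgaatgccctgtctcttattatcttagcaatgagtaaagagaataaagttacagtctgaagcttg

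The core lay at position -48 in H2-Aa and at -59 in H2-Eb1, counted from the gene start, with a further match on the opposite strand at -35 in H2-Eb1. A match on either strand was found in 37.4% of all 32851 promoters of that length, so such a match is common and is a description only. The promoters of H2-Ab1 and Cd74 are not shown.

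The class II genes rose and dipped on the same arrays. H2-Ab1 ran from 8.65 through a median of 9.14 to 9.94 in WT cells, and stood at 9.81, 9.42, 9.36, 9.33 and 9.86 in knockout samples 1 to 5. Its lowest value was on WT sample 4 and its highest on WT sample 2, so the knockout values lay inside the WT range. H2-Eb1 ran from 7.73 through 8.11 to 9.23 in WT, with 8.93, 8.47, 8.41, 8.34 and 9.09 in knockout cells. It was again lowest on WT sample 4 and highest on WT sample 2. H2-Aa ran from 8.50 through 9.35 to 10.26 in WT and stood at 9.62, 9.61, 9.42, 9.80 and 10.04 in knockout cells, with WT sample 4 lowest and WT sample 3 highest. Cd74 ran from 9.85 through 10.14 to 10.63 in WT, and was at 10.57, 10.07, 10.44, 10.29 and 10.91 in knockout cells. Here too WT sample 4 was lowest, while knockout sample 5 was highest.

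Across the 11 arrays H2-Ab1 and H2-Eb1 correlated with Pearson's r = 0.96 (permutation p = 3e-05, adjusted p = 0.00015) and Spearman's rho = 0.98 (permutation p = 3e-05, adjusted p = 0.00015). Without the 2 arrays farthest from the median of H2-Ab1, r was again 0.96. H2-Aa and Cd74 correlated with r = 0.83 (permutation p = 0.00168, adjusted p = 0.0021) and rho = 0.89 (permutation p = 0.00068, adjusted p = 0.00113), and r was 0.72 without the 2 farthest arrays. In all, 5 of 9 listed gene pairs had both genes tested, and p-values were adjusted over these 5. All 6 pairs among the 4 class II genes had positive r, with a median of 0.87, against a median of 0.00 over all pairs of the 18003 tested probes. These correlations share the same 11 arrays and their scaling.

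Further genes of the class II pathway were measured alongside. H2-DMa, a chain of the DM molecule that loads peptides, was at 0.29 ± 0.16 (SE) knockout minus WT (limma adjusted p = 0.359). Cd86, a costimulatory ligand of antigen-presenting cells, was at 0.19 ± 0.11 (limma adjusted p = 0.390). H2-DMb1, the other DM chain, was named after its values were seen and was at 0.36 ± 0.23 (limma adjusted p = 0.443). Ctss, the 1 tested gene of that list with a negative value, was at -0.18 ± 0.18 (limma adjusted p = 0.64). Ciita, the master coactivator of class II genes, was above background on 0 arrays with both probes, and so was H2-Ob, a chain of the B cell modulator of loading. Of 8 genes on that list 4 were tested, and limma called 0 in either direction, beside 1.78% of all tested probes.

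Myeloid markers with signal followed the class II pattern. Lyz1 and Lyz2 encode lysozyme, a bacteriolytic enzyme of macrophages (and, for Lyz1, of Paneth cells). The tested Lyz1 probe ran from 10.07 through 10.86 to 11.96 in WT cells and stood at 11.53, 11.46, 10.80, 11.66 and 11.77 in knockout samples 1 to 5. WT sample 4 was lowest and WT sample 2 highest. Lyz2 ran from 8.29 through 9.34 to 10.19 in WT, with 9.36, 9.56, 9.22, 9.83 and 9.87 in knockout cells. It was lowest on WT sample 4 and highest on WT sample 3, and the genotypes overlapped for both genes.

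The lysozymes are close paralogs, and how far their probes share transcripts was not tested. Of the 3 Lyz1 probes 1 was above background on all arrays, 1 on 2 arrays and 1 on 0, and of the 3 Lyz2 probes 2 were above background on all arrays and 1 on 0. Lyz1 and Lyz2 correlated with r = 0.92 (permutation p = 7e-05, adjusted p = 0.000175) and rho = 0.89 (permutation p = 0.00051, adjusted p = 0.00113), and r was 0.81 without the 2 farthest arrays.

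Fcer1g and Tyrobp encode adaptor chains that carry the activating signal of Fc and related receptors in myeloid and natural killer cells. Fcer1g ran from 6.37 through 7.30 to 8.61 in WT cells and was at 7.99, 8.12, 7.72, 7.56 and 7.93 in knockout cells. The knockout values fell within a narrow band inside the WT range, which WT samples 4 and 2 bounded. Tyrobp ran from 5.49 through 5.99 to 6.77 in WT, with 6.42, 6.02, 6.11, 6.36 and 6.35 in knockout cells. It was above background on 3 of 6 WT arrays and on all 5 knockout arrays. The pair correlated with r = 0.85 (permutation p = 0.0009, adjusted p = 0.0015) and rho = 0.72 (permutation p = 0.0163, adjusted p = 0.0204), and r was 0.65 without the 2 farthest arrays.

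Csf1r, the receptor that macrophages need for survival, was close to background. It ran from 5.44 through 5.78 to 6.55 in WT cells and was at 6.62, 6.29, 6.44, 6.17 and 5.93 in knockout cells. Its probe was above background on 3 WT and all 5 knockout arrays, and its other probe on 0 arrays. Cd14, the lipopolysaccharide co-receptor, was above background on all arrays and ranged from 7.03 to 8.77 in WT and from 8.17 to 8.47 in knockout cells. C1qb and C1qc, chains of complement C1q, were above background on 5 and 6 arrays. Fcgr3, a low-affinity receptor for IgG, was above background on 5, and Aif1, a calcium-binding protein of macrophages, on 8.

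Among the 10 tested myeloid genes 8 were highest on WT sample 2, and 6 were lowest on WT sample 4. Among all 18003 tested probes 9.02% were highest on WT sample 2 and 4.37% lowest on WT sample 4. All 4 class II genes were lowest on WT sample 4, and 2 were highest on WT sample 2 (1 with equal medians or the authors' values). The median myeloid gene stood 0.85 below its mean over the arrays on WT sample 4, a deviation of -0.85, and 0.67 above it on WT sample 2. Deviations were -0.62 on WT sample 6, -0.29 on WT sample 5, -0.02 on WT sample 1 and 0.41 on WT sample 3. The knockout samples lay between -0.12 and 0.34. For class II genes the deviation was -0.75 on WT sample 4, 0.51 on WT sample 2, 0.50 on WT sample 3 and 0.54 on knockout sample 5.

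**Figure D2:**
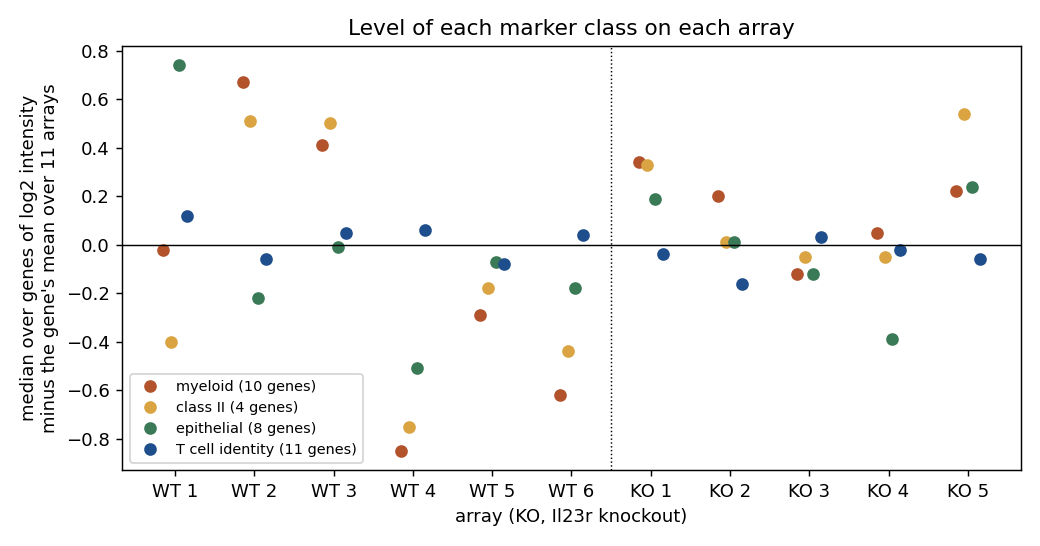
The plot gives, for each array, the median over the genes of a class of the log2 intensity minus the gene's mean over the 11 arrays, for myeloid (10 genes), class II (4), epithelial (8) and T cell identity (11) genes. Myeloid and class II points are both lowest on WT sample 4 (-0.85 and -0.75), the highest epithelial point is on WT sample 1 (0.74), and T cell points stay between -0.16 and 0.12.

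Myeloid and class II markers moved as one block over the arrays. All 45 pairs of myeloid genes correlated positively (median r = 0.70), and so did all 40 pairs of a myeloid with a class II gene (median r = 0.74). Taken as deviations from the genotype means, the myeloid median was 0.72 and that of class II genes 0.86. Myeloid and T cell identity genes had a median r of -0.20, which was 0.13 with the arrays scaled to equal medians and -0.28 on the authors' values. Median raw brightness was lowest on WT samples 5 (107.6) and 6 (110.9), where myeloid deviations were below 0. Next came knockout sample 5 (117.5), where the myeloid deviation was 0.22 and that of class II genes 0.54. Brightness was highest on knockout sample 1 (176.7), where the myeloid deviation was 0.34. It was 156.7 on WT sample 2 and 165.3 on WT sample 1, and 128.4 and 131.7 on WT samples 3 and 4, whose deviations were 0.41 and -0.85. Granulocyte genes (S100a8 and S100a9) were also highest on WT sample 2, with a deviation of 1.89, but were lowest on knockout sample 5. The part of array brightness in these orders was not tested.

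Myeloid and class II genes spread more widely over the WT than over the knockout samples. The standard deviation was larger in WT than in knockout cells for all 10 tested myeloid genes (median 0.64 against 0.24) and for all 4 class II genes (0.59 against 0.29), as for 54.4% of all tested probes (0.19 against 0.18). It was larger in WT for 5 of 8 epithelial genes (0.47 against 0.43) and 6 of 11 T cell identity genes (0.13 against 0.12), and smaller for Hba-a1 (0.55 against 0.76). No test of this difference in spread was made. The span between the lowest and highest array reached 2.28 for C1qb, against a median span of 0.66 and a 95th percentile of 1.35 over all tested probes. Of the 10 myeloid genes 6 exceeded that percentile, of the 8 epithelial genes 6, and of the 11 T cell identity genes 0.

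Epithelial markers did not move as a block. Only 18 of the 28 pairs among the 8 tested genes correlated positively (median r = 0.26, and 0.11 without WT sample 1), and they fell into transcripts with different orders of arrays. Myeloid and epithelial genes had a median r of 0.15 over 80 pairs.

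Reg3b, Reg3g and Muc2, which encode secreted products of the epithelium, peaked on WT sample 1. These genes were chosen for description after their values were seen. Reg3b, an antimicrobial lectin, ran from 8.51 through 9.33 to 11.43 in WT cells and was at 9.51, 9.20, 9.92, 7.58 and 9.59 in knockout samples 1 to 5. WT sample 1 exceeded every other array by more than 1 log2 unit, and knockout sample 4 was lowest. Reg3g, its paralog, which kills Gram-positive bacteria, ran from 5.07 through 6.60 to 9.19 in WT and was at 7.16, 6.90, 7.43, 4.88 and 7.01 in knockout cells. The order was much the same, with WT sample 1 highest, knockout sample 3 next, and knockout sample 4 lowest. Reg3g was above background on 4 WT and 4 knockout arrays. Muc2, the gel-forming mucin of goblet cells, was at 8.41 on WT sample 1, while the other 10 arrays lay between 5.79 and 6.61. These values came from its brightest probe. Its other probes were above background on 0 arrays and stood at 4.84 and 4.73 on WT sample 1.

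Not every epithelial gene was highest there. Of the 8 tested epithelial genes 5 had their maximum on WT sample 1, as did 9.92% of all tested probes. Tff3, whose probe was too dim for the test, was above background on 1 WT and 2 knockout arrays, and was highest on knockout sample 5 (6.48), with WT sample 1 at 6.45. Lgals4, a galectin of the intestinal epithelium, was highest on WT sample 1 with each of its 3 probes, and its brightest probe ran from 8.92 through 9.05 to 9.62 in WT cells. Epcam, Krt19 and Fabp2 were at background on that array too. On WT sample 1 the myeloid deviation was -0.02 and that of class II genes -0.40, so these classes did not stand high there.

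**Figure D3:**
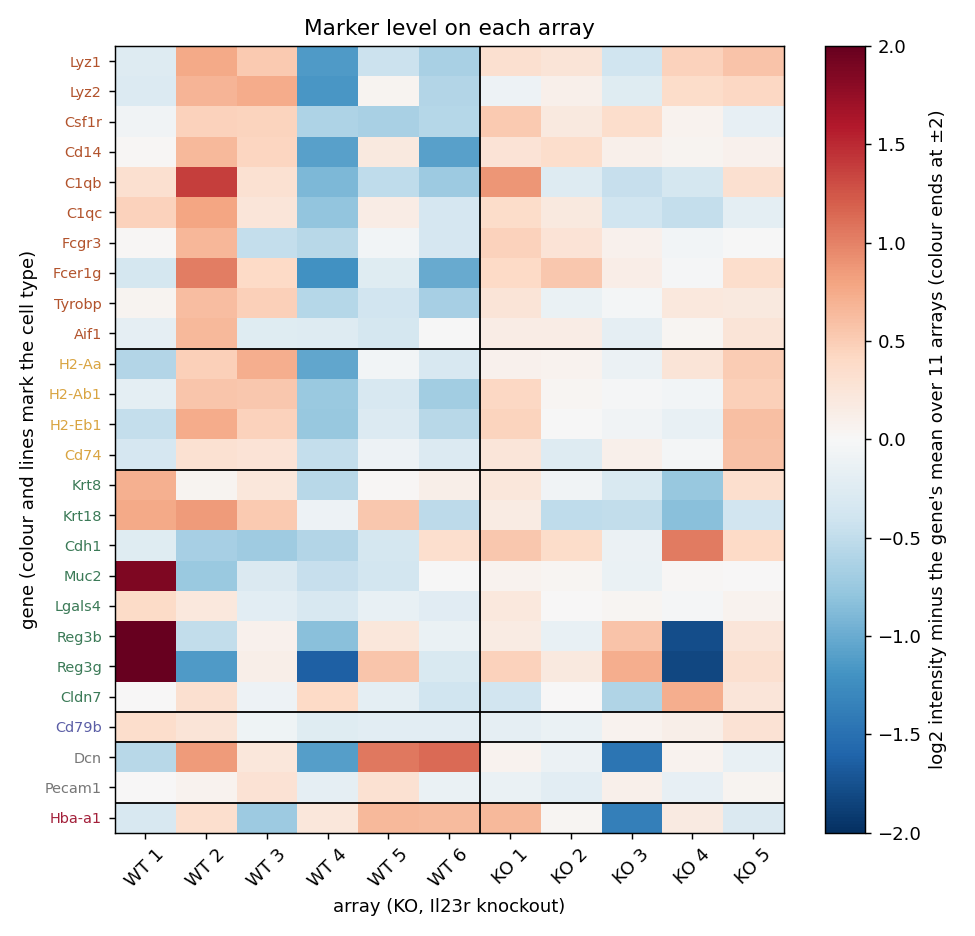
The heat map shows, for the 26 tested marker genes (rows, by cell type) and the 11 arrays (columns), the log2 intensity minus the gene's mean over the arrays, with colours ending at ±2. All myeloid and class II rows are red on WT sample 2 and blue on WT sample 4, and Muc2, Reg3b and Reg3g are red on WT sample 1.

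The keratin pair Krt8 and Krt18, partners in the filaments of simple epithelium, kept together only loosely. Krt8 ran from 7.12 through 7.75 to 8.38 in WT cells and was at 7.90, 7.60, 7.37, 6.92 and 8.00 in knockout cells. Krt18 ran from 5.76 through 6.82 to 7.14 in WT and was at 6.45, 5.78, 5.79, 5.44 and 5.90 in knockout cells. Both were lowest on knockout sample 4, and Krt8 was highest on WT sample 1 but Krt18 on WT sample 2. Their correlation did not pass (r = 0.58, permutation p = 0.0628, adjusted p = 0.0628; rho = 0.48, permutation p = 0.139, adjusted p = 0.139), and r was 0.22 without the 2 farthest arrays.

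Cdh1, which encodes E-cadherin, went its own way. Its brighter probe ran from 7.59 through 7.84 to 8.64 in WT cells and was at 8.84, 8.68, 8.19, 9.35 and 8.70 in knockout samples 1 to 5. Of the knockout values 4 lay above every WT value, and knockout sample 3 fell below WT sample 6. Cldn7, a tight junction claudin, was also highest on knockout sample 4 (7.21), and ran from 6.09 to 6.88 in WT cells.

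Signal for the remaining types differed by gene. Cd79b, a chain of the B cell receptor complex, ran from 5.61 through 5.71 to 6.21 in WT cells and was at 5.68, 5.73, 5.93, 5.97 and 6.14 in knockout cells. It was above background on 7 of 11 arrays with 1 probe and on 0 with the other. Of 17 probes for 8 further B and plasma cell genes 14 were above background on 0 arrays and none reached the filter. These included Pax5, Cd22, Jchain and Mzb1, each at background on every array.

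Dcn, the collagen-binding proteoglycan decorin of fibroblasts, had signal on 1 probe of 4. That probe ran from 5.46 through 7.10 to 7.69 in WT cells and was at 6.63, 6.45, 5.10, 6.63 and 6.41 in knockout cells. WT samples 2, 5 and 6 were high and WT sample 4 and knockout sample 3 low. The probe was above background on 5 WT and 4 knockout arrays. Of the other 3 Dcn probes 1 was above background on 1 array and 2 on none. Pecam1, an adhesion molecule of endothelium that leukocytes also carry, was above background on all 11 arrays with all 3 probes. It ran from 9.03 through 9.25 to 9.52 in WT and was at 9.08, 9.00, 9.32, 9.06 and 9.27 in knockout cells, a span of only 0.52. Of 31 probes for 16 further stromal and endothelial genes 26 were above background on 0 arrays, among them those of Cdh5, Kdr and Vwf, which mark endothelium.

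Hba-a1, the α chain of haemoglobin, ran from 6.66 through 7.67 to 8.03 in WT cells and was at 8.04, 7.42, 6.02, 7.57 and 7.10 in knockout cells. Knockout sample 3 was lowest and knockout sample 1 highest. The β globin genes Hbb-bs and Hbb-bt, whose near-identical copies probes may not tell apart, followed it. The brightest Hbb-bs probe was also lowest on knockout sample 3 (6.80) and was highest on WT sample 5 (9.36). All 3 pairs of these globin genes correlated positively (median r = 0.90). Alas2 and Slc4a1, which mark erythroid precursors and red cell membranes, were above background on 0 arrays.

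**Figure D4:**
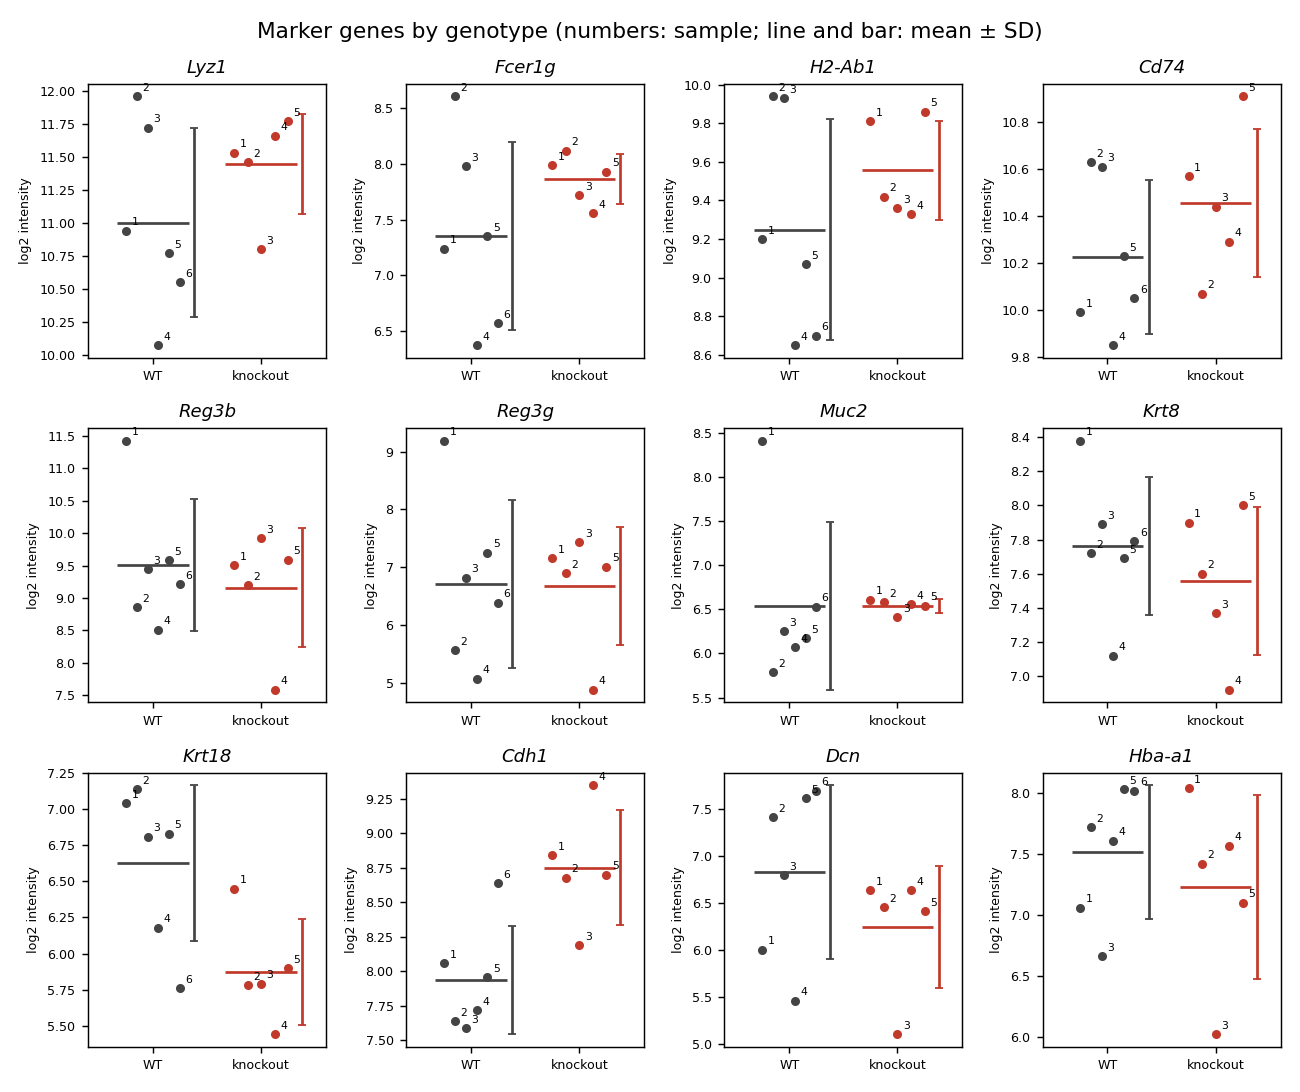
The plot gives the log2 intensity of 12 marker genes in each of the 6 WT and 5 knockout samples, with sample numbers beside the points, the mean as a line and the SD as a bar. WT sample 1 stands above all others for Reg3b, Reg3g and Muc2, and the genotypes overlap in every panel.

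The comparison of knockout with WT cells asked whether the markers of any type were higher in T cells of one genotype. For none of the 37 tested marker probes did the difference pass the test. With p-values adjusted over all tested probes (Benjamini-Hochberg, called under 0.05), limma called 0 of the 37, against 1.78% of all 18003 (1.17% higher and 0.611% lower in knockout cells). At an unadjusted p under 0.05 there were 4 of the 37, from Cdh1, Krt18, Lgals4 and Aif1, beside 17.6% of all tested probes. For 0 of the 37 probes did WT and knockout values not overlap, against 3.21% of all tested probes.

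**Figure D5:**
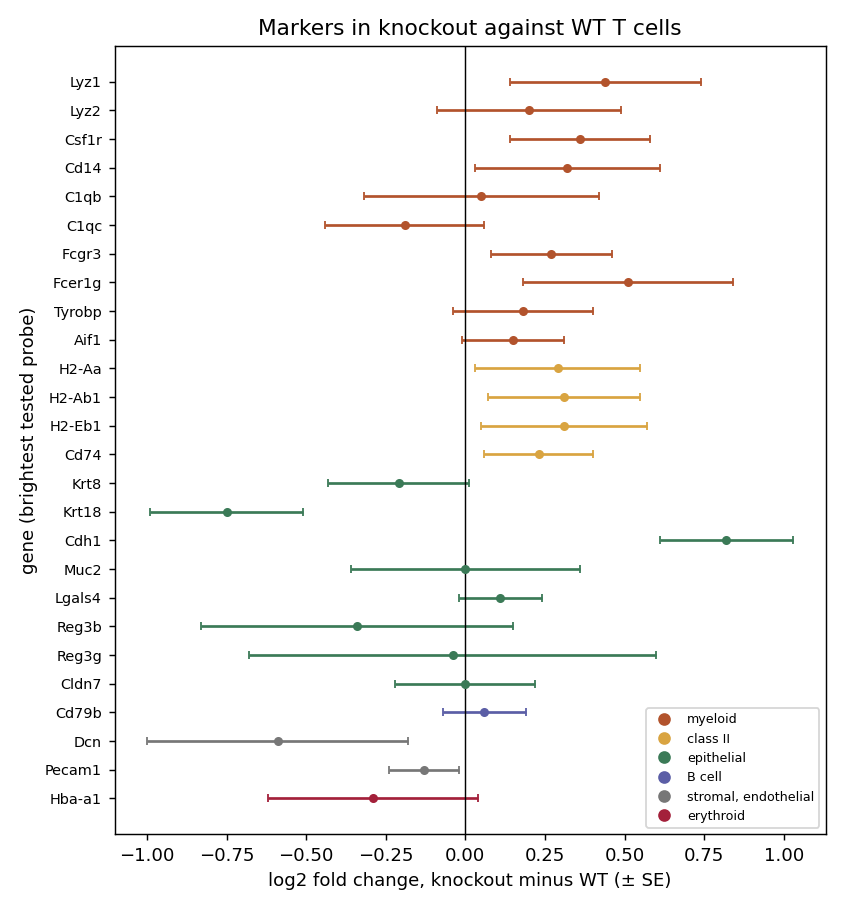
The plot gives the log2 fold change, knockout minus WT, with its standard error, of the brightest tested probe of each of the 26 marker genes, coloured by cell type. All 4 class II genes and 9 of 10 myeloid genes lie to the right of 0, Cdh1 (0.82) lies farthest right and Krt18 (-0.75) farthest left.

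The difference for Cdh1 was the largest upward, with a mean over 6 WT samples of 7.93 ± 0.39 (SD), a mean over 5 knockout samples of 8.75 ± 0.41 (SD) and a log2 fold change of 0.82 ± 0.21 (SE, limma adjusted p = 0.071). It missed the threshold, and passed in 6 of 19 alternatives, among them with the arrays scaled to equal medians (0.88, adjusted p = 0.0216), without background correction (0.61, adjusted p = 0.0456) and without WT sample 6 (0.96, adjusted p = 0.0224). The dimmer Cdh1 probe was at 0.18 ± 0.20 (adjusted p = 0.674). The largest downward difference was that of Krt18, from 6.63 ± 0.54 in WT to 5.87 ± 0.36 in knockout cells, a log2 fold change of -0.75 ± 0.24 (limma adjusted p = 0.133). It was at -0.34 without background correction and at -0.36 on the authors' values, and neither passed. It passed in 2 of 18 alternatives, among them without WT sample 6 (-0.94, adjusted p = 0.0408). Krt8, its filament partner, was at -0.21 ± 0.22.

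The other epithelial genes did not pass either. With their brightest probes Muc2 was at 0.00 ± 0.36, Reg3g at -0.04 ± 0.64, Reg3b at -0.34 ± 0.49, Cldn7 at 0.00 ± 0.22 and Lgals4 at 0.11 ± 0.13. The other Lgals4 probes were at 0.34 ± 0.14 (limma adjusted p = 0.235) and 0.05 ± 0.16. Without WT sample 1 Muc2 was at 0.38 ± 0.12 (limma adjusted p = 0.152), Reg3g at 0.45 and Reg3b at 0.04, none of which passed. The median over the 8 epithelial genes was -0.02, and between -0.21 (without WT sample 4) and 0.12 (without WT sample 1) when 1 array was left out, beside -0.01 over all tested probes.

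Class II genes had positive values that did not pass. H2-Ab1 and H2-Eb1 were both at 0.31 (SE 0.24 and 0.26), H2-Aa at 0.29 ± 0.26 and Cd74 at 0.23 ± 0.17, with limma adjusted p between 0.515 and 0.589. The class median was 0.30, and it was between 0.17 (without WT sample 4) and 0.43 (without WT sample 2 or 3) when 1 array was left out. All 8 class II probes had positive values, as did 48.5% of all tested probes. These probes rise and fall together over the arrays, so they do not count as 8 separate observations.

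Myeloid genes had a median of 0.24, with 9 of 10 genes positive and 0 called. Fcer1g was at 0.51 ± 0.33 (limma adjusted p = 0.438), Lyz1 at 0.44 ± 0.30, Csf1r at 0.36 ± 0.22 and Cd14 at 0.32 ± 0.29. Fcgr3 stood at 0.27, Lyz2 at 0.20, Tyrobp at 0.18, Aif1 at 0.15, C1qb at 0.05 and C1qc at -0.19. The other tested Aif1 probe was at 0.34 ± 0.16 (limma adjusted p = 0.278). The class median was 0.12 without WT sample 4 and 0.42 without WT sample 2, the latter over the 8 genes that still passed the filter. It was 0.13 without background correction and 0.11 on the authors' values. For T cell identity genes the median was -0.06. Limma called 0 of 19 probes, beside 1.78% of all tested probes. At an unadjusted p under 0.05 there were 3 of the 19, beside 17.6% of all tested probes. Cd247, the ζ chain of the T cell receptor complex, was at -0.44 ± 0.15 (adjusted p = 0.145) with its brightest probe and at -0.12 and -0.17 with the others, and the adhesion receptor gene Cd2 at -0.18 ± 0.07 (adjusted p = 0.235).

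Of the other types, Dcn was at -0.59 ± 0.41 (limma adjusted p = 0.473), Pecam1 at -0.13 ± 0.11, Hba-a1 at -0.29 ± 0.33 and Cd79b at 0.06 ± 0.13. Over 9 further lists of markers of non-CD4 cell types, 92 of 97 genes had probes, and 108 of their 178 probes were above background on 0 arrays. Limma called 0 of the 46 probes tested, beside 1.78% of all tested probes. At an unadjusted p under 0.05 there were 3 of the 46, beside 17.6% of all tested probes. In those lists the macrophage gene Lilrb4a was at -0.30 ± 0.11 (adjusted p = 0.193) and Apoe, the lipid carrier, at -0.32 ± 0.25. These came from a macrophage list of 6 tested genes, 3 with positive and 3 with negative values (median 0.13). Its other tested genes were Clec7a (0.34), Cx3cr1 (0.32), Sirpa (0.27) and Lst1 (-0.02). Nkg7, a cytotoxic granule protein, was at 0.19 ± 0.11 and Cd8b1 at -0.18 ± 0.10 with its brightest probe but at 0.52 ± 0.19 (adjusted p = 0.192) with another. The dendritic cell genes Zbtb46 and Siglech stood at 0.03 (another probe at 0.35) and -0.12. Of the 7 genes on the dendritic cell list 4 (Flt3, Xcr1, Clec9a and Cd209a) were above background on 0 arrays. The other Siglech probes were likewise above background on 0 arrays. The goblet cell gene Spink4 stood at 0.32 and the colonocyte carbonic anhydrase gene Car1 at -0.43. The smooth muscle gene Acta2 was at 0.29, the matrix gene Bgn at -0.11, Hbb-bs at -0.41 and Hbb-bt at -0.27. Whether the marker signal came from other cells among the sorted cells or from the T cells was not tested.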

How the data were processed

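Messenger RNA of 6 WT and 5 Il23r knockout T cell samples was amplified and hybridised to a 1-colour Illumina bead array, per the labels. The authors deposited linear probe intensity with no visible normalization, and the submitters' processing notes name GenomeStudio 1.6.0. The deposited detection score, called a detection p in the file header, rose with intensity on every array (Spearman's rho over probes 0.984 or more), so 1 minus the score was taken as the detection p. The authors' log2 values are log2 intensities from which the 75th percentile of log2 intensity on the same array was subtracted. Rows of both files were joined by their 11 values (largest difference 0.000339 log2). Of the 45281 probes 34885 had 1 gene symbol in the platform annotation, 18 had several and 10378 were not listed.

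Normalization used neqc (limma 3.58.1, R 4.3.3, offset 16, quantile). For the dim markers Csf1r and Fcgr3 it gave larger fold changes (0.36 and 0.27) than without background correction (0.15 and 0.12). The 18003 probes above background (detection p under 0.05) on at least 5 arrays were fitted with lmFit and eBayes, genotype as single term, two-sided, and p-values adjusted by Benjamini-Hochberg over all of them. A gene is represented by its brightest tested probe. Correlations used 100000 permutations (scipy 1.17.1). Code was checked on simulated data. The number of arrays limits the precision.

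Members, lists and gene pairs were chosen with earlier results of these data known. Values by array were given for tested genes of the listed pairs and for the 2 genes of each class with the smallest p; of other lists the 2 genes with the smallest p were named. Genes beyond that rule (among them Reg3b, Reg3g, Muc2, Lgals4, Cldn7, Cd14 and all genes named for lacking signal) were chosen after their values were seen. Protein sequences were not used here, and of the class II promoter elements the Y box core was searched but not the X box. Alternatives covered the replicate number as a block, background correction, scaling, filter, variance model, array weights and each array left out. Slide positions and scan dates were not used here.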

Additional observations from a re-analysis of the deposited data

Results flagged for a closer look

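Of 52 groups screened (26 genes in 2 genotypes), 5 held an array far from the rest of its group, where chance gives about 1 in 20. In WT cells Muc2 was at 8.41 on sample 1 with the next WT sample at 6.53, and Reg3b was at 11.43 on sample 1 with the next at 9.58. Aif1 was at 6.56 on WT sample 2, with the next at 5.91. In knockout cells Reg3g was at 4.88 on sample 4, with the next at 6.90, and Dcn was at 5.10 on sample 3, with the next at 6.41.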

How the results depend on the processing

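Limma called 320 of all tested probes, 210 of 45281 without the detection filter, and 159 to 513 when 1 array was left out (513 without WT sample 2; 162 and 159 without WT samples 3 and 5; 187, 178 and 181 without knockout samples 2, 3 and 4). Among marker probes it called 0, but 1 (Cdh1) without background correction, with equal medians, with array weights and without knockout sample 3, and 2 (Cdh1 and Krt18) without WT sample 6, so leaving out 1 array gave 0 to 2. Fitting the replicate number as a block, limma called 264 probes and 2 marker probes, Cdh1 (0.96, adjusted p = 0.0248) and Krt18 (-0.93, adjusted p = 0.0124). The myeloid median was 0.15 with the block. Same-numbered samples deviated together in part (correlations 0.24, 0.17, -0.01, 0.08 and 0.26 for numbers 1 to 5). The labels do not say whether same-numbered samples shared a recipient mouse, so the numbers were not taken as pairs. Cdh1 passed with array weights (0.83, adjusted p = 0.0499) and without knockout sample 3 (0.96, adjusted p = 0.0446), and missed the threshold in 13 of 19 alternatives. Values near 0 changed sign without passing in any alternative: Muc2 (-0.06 without background correction, -0.08 on the authors' values), Cldn7 (0.01 without background correction, 0.03 with equal medians), Reg3g (0.09 with array weights) and C1qb (-0.09 with the block). With 1 array left out, the ranges were -0.01 to 0.37 for Lyz2, -0.13 to 0.17 for C1qb, -0.14 to 0.38 for Muc2, -0.54 to 0.05 for Reg3b, -0.37 to 0.45 for Reg3g, -0.18 to 0.15 for Cldn7, 0.00 to 0.13 for Cd79b and -0.49 to 0.02 for Hba-a1. C1qb had a value in only 13 of the 19 alternatives. In the others, such as without WT sample 2, its probe did not pass the detection filter. Class II genes highest on WT sample 2 numbered 1 of 4 with equal medians and on the authors' values. With equal medians the Krt8 and Krt18 pair passed by Pearson's r (0.62, permutation adjusted p = 0.0421) but not by Spearman's rho (0.58, permutation adjusted p = 0.0659). There r was 0.29 without the 2 farthest arrays. The cause of these changes was not tested. Leaving out WT sample 1 for the array orders and correlations was chosen after seeing the data. A detection p under 0.01 in place of 0.05 left 21 to 32 marker probes above background per array. Dim probes near background, such as C1qb and Fcgr3, limit what these arrays can show, and 26 marker probes were too dim to test.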

Other observations

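Other transcripts shared the peak on WT sample 1. Of all 18003 tested probes 7 stood at least 1 log2 unit above every other array on WT sample 1, and they belonged to Muc2, Reg3g, Retnlb, Reg3b, Dmbt1, Slc7a7 and Gstp2. Retnlb, a goblet cell protein with antimicrobial activity, was at 8.51 there against at most 6.85 elsewhere. Dmbt1, a mucosal scavenger protein, was at 8.57 against at most 7.32. Slc7a7, an amino acid transporter subunit, was at 7.95 against at most 6.84. Counts of such probes on the other arrays ran from 1 to 6.

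Granulocyte genes followed neither the myeloid nor the epithelial order. S100a8 and S100a9, which encode the calprotectin chains of neutrophils and monocytes, were at 11.39 and 9.79 on WT sample 2, their highest array. S100a8 was next highest on WT samples 1 (9.93) and 5 (9.92), and lowest on knockout sample 5 (7.98), where the myeloid deviation was 0.22. In the comparison of genotypes S100a8 was at -0.79 ± 0.43 (limma adjusted p = 0.357) and S100a9 at -0.63 ± 0.38 (limma adjusted p = 0.401). Of the 12 genes on the granulocyte and mast cell list 8 were above background on 0 arrays, among them Mpo, Elane, Cxcr2, Cpa3 and Mcpt1.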
